A study of Oncorhynchus mykiss with 8 samples.

Results

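White muscle transcripts of large and small rainbow trout (Oncorhynchus mykiss) from the Dec. lot were compared on 4 2-colour Agilent salmonid arrays, out of 8 arrays that covered a Dec. and a Sept. lot. The arrays were chosen by their label alone, and every probe with a value on all 4 of them was taken, which gave 39770 of the 43603 gene probes on the array. The remaining 3833 probes lacked a Dec. value and were not used. All fish were immature juveniles of the Lyndon commercial strain, just over a year old, from families that shared 1 sire, and were reared together in well water under a natural photoperiod. Large fish were the heaviest and next heaviest members of each family, and small fish were the lightest and next lightest. mRNA of 5 fish, 1 from each family, was pooled, so each size class had 2 pools of 10 fish in all. By the methods, the pool of the heaviest fish was paired with that of the next lightest, and the pool of the next heaviest with that of the lightest. The labels do not say which arrays hold which pairing. A pool of large fish was hybridised together with a pool of small fish, and then again with the Alexa Fluor 555 and 647 dyes exchanged. Arrays of such a dye swap hold the same RNA and were averaged, so n = 2 pool pairs throughout.

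White muscle makes up most of the trunk of a trout and is built of fast, glycolytic fibres, whereas a thin strip of red muscle along the lateral line holds slow, oxidative fibres with their own isoforms of myosin, troponin and tropomyosin. Fish muscle grows by adding new fibres and by enlarging existing ones, and the balance of protein synthesis against breakdown by proteasomes and lysosomes sets how much protein is kept. A plug of muscle also holds connective tissue, fat cells, nerve, blood and resident immune cells, and its RNA is a mixture of all of them. In pooled tissue RNA, fewer cells of a type and less RNA per cell cannot be told apart. The deposited values are ratios, so neither the absolute level of a transcript nor the presence of a marker could be read from them.

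Values are given as log2(large/small), where 1 unit is 2-fold and values above 0 mean a higher level in large fish. This direction is a likely one. The labels give the dyes but do not say which channel is the numerator, and the direction rests on the signs of probes that the study listed for Dec. muscle. Read this way, the 301 probes of its large-fish list were positive on between 285 and 301 of them per array, and the 787 probes of its small-fish list were negative on between 537 and 783. The lowest count of each list came from pool pair 1 with large fish in Alexa Fluor 647. Each array held between 41909 and 42771 values, with a median between -0.02 and 0.01 and a standard deviation between 0.37 and 0.60.

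The dye swaps repeated unequally. Over the 39770 probes, the 2 arrays of pool pair 1 correlated at r = -0.27 and those of pool pair 2 at r = 0.49. Across pool pairs, the arrays with large fish in Alexa Fluor 555 correlated at r = 0.42 and those with large fish in Alexa Fluor 647 at r = 0.05. Between opposite orientations, the Alexa Fluor 647 array of pool pair 1 correlated at r = -0.12 with the Alexa Fluor 555 array of pool pair 2, and the Alexa Fluor 555 array of pool pair 1 at r = 0.15 with the Alexa Fluor 647 array of pool pair 2, each array being named by the dye of its large fish. The Alexa Fluor 647 array of pool pair 1 was thus the one least like the others. Its orientation was taken as deposited and could not be checked against scanner values here, and a wrong one would change every mean, SE and sign of pool pair 1. Such correlations across probes are descriptions only, because probes share an array and its dyes and are not independent. In pool pair 1 the SD over probes of the mean of the swapped arrays was 0.30, below the SD of 0.39 of the deviation of an array from that mean. In pool pair 2 these SDs were 0.42 and 0.24, with the mean above the deviation. After averaging, the pool pairs correlated at r = 0.30 and had the same sign for 59.6% of probes. The single-array values below are given as pool pair 1 with large fish in Alexa Fluor 555 and then 647, followed by pool pair 2 in the same order.

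**Figure D1:**
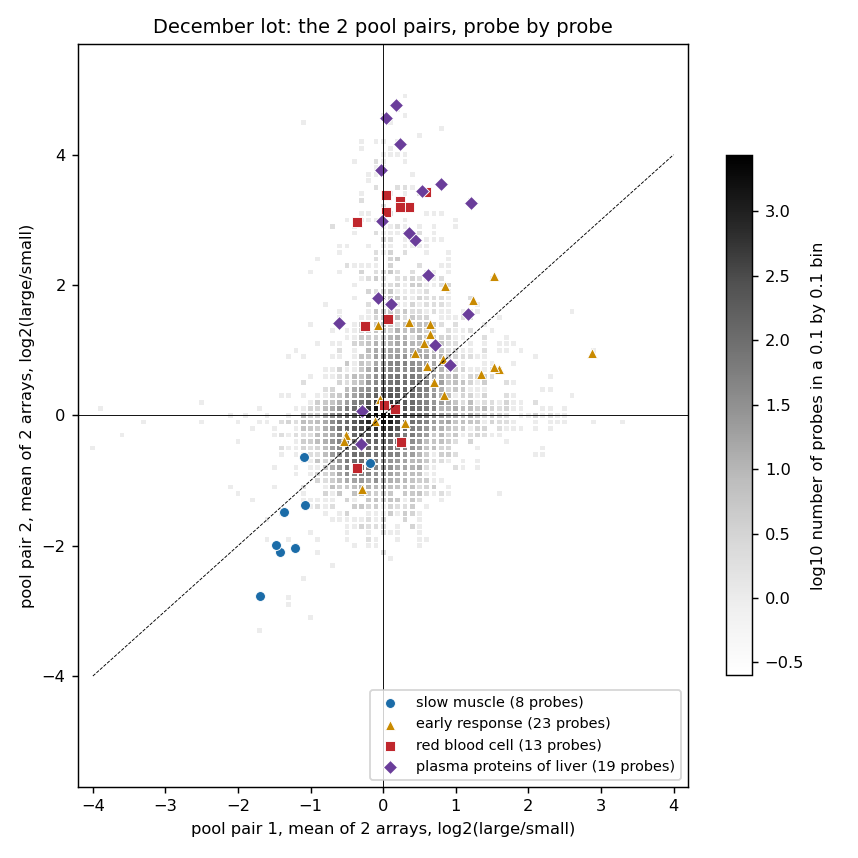
Mean log2(large/small) of the 2 arrays of pool pair 1 (horizontal) against pool pair 2 (vertical) for the 39770 probes, as grey bins shaded by the log10 number of probes, with the probes of 4 gene lists as coloured symbols and the line of equality dashed. Slow muscle probes lie below 0 in both pool pairs, whereas 7 of 13 red blood cell and 11 of 19 plasma protein probes lie above 2 in pool pair 2 and 0 of either do in pool pair 1.

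No probe differed between large and small fish after adjustment for the number of probes. With limma's moderated test on the 2 pool pairs, 0 of 39770 probes (0%) had an adjusted p under 0.05, and the lowest adjusted p was 0.352. At an unadjusted p of at most 0.05 and a change of at least 1.2-fold, the threshold named in the study's methods, 4790 probes passed (12%). Of these, 2202 were higher in large fish (5.54%) and 2588 were higher in small fish (6.51%). These shares are the background against which the gene groups below are read, and a probe that passed only this threshold is described as such. Probes named from elsewhere than the study's Dec. muscle lists are those it did not list on these arrays. That favours small values and low counts among them. Without pool pair 1, where the lone Dec. pool pair was assumed to vary like the Sept. lot, 394 probes had an adjusted p under 0.05, while 0 did without pool pair 2. Without the array of pool pair 1 with large fish in Alexa Fluor 555, 473 probes passed the threshold as higher in large fish and 839 as higher in small fish. Without the array of pool pair 2 with large fish in Alexa Fluor 555, these counts were 1487 and 1597. Without the array of pool pair 1 with large fish in Alexa Fluor 647, they were 2100 and 2374, and 0 probes had an adjusted p under 0.05.

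The same sign on all 4 arrays was found for 5904 probes (14.8%), of which 2898 were higher in large fish (7.29%) and 3006 were higher in small fish (7.56%). Only 1797 of the 4790 probes past the threshold (37.5%) had it, so most of them changed sign between arrays. Changes of at least 2-fold leaned to large fish, with 369 probes higher in large fish and 73 higher in small fish. In pool pair 2, 207 probes were at least 4-fold higher in large fish, against 32 in pool pair 1. For 109 of those 207 probes, pool pair 1 lay within 1.2-fold of no difference. In both pool pairs, 36 probes were at least 2-fold higher in large fish and 22 in small fish.

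**Figure D2:**
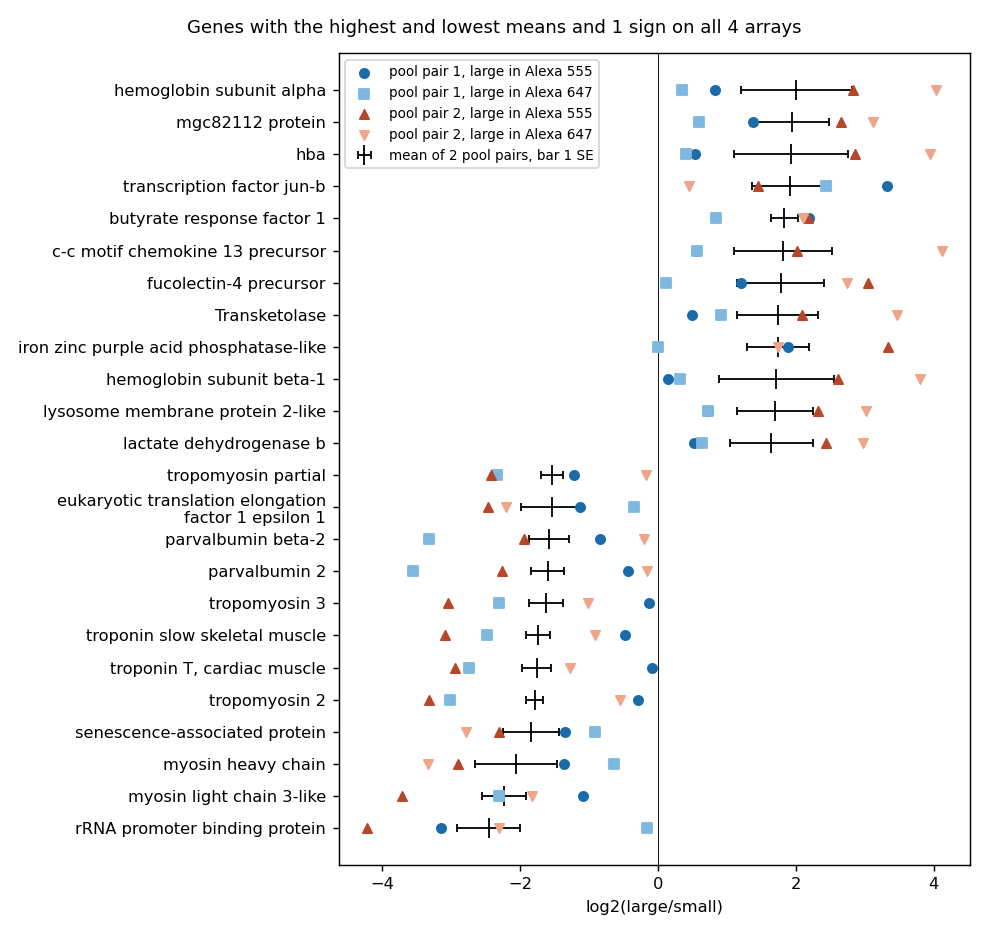
log2(large/small) of the 12 highest and 12 lowest named genes with the same sign on all 4 arrays, 1 symbol per array coloured by pool pair and shaped by the dye of the large fish, with the mean and 1 SE over 2 pool pairs in black. Muscle protein transcripts fill much of the lower block, and there the arrays of 1 pool pair often lie farther apart than the pool pairs do.

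Transcripts of slow muscle proteins were lower in large fish than in small fish as a group. Of the 8 probes measured, of 9 listed, all 8 had a negative mean and 7 passed the threshold, with a median of -1.52. The median was -1.29 in pool pair 1 and -1.74 in pool pair 2. All 8 take their names from the study's Dec. muscle lists and so were chosen on these same arrays, which makes their shared direction no independent evidence.

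Myosin light chain 3-like (A_05_P248844), an isoform of the slow and cardiac type, had values of -1.08, -2.30, -3.70 and -1.83, so that it was lower in large fish on every array. Its mean was -2.23 ± 0.31 (SE, n = 2), a 4.69-fold lower level in large fish, with an adjusted p of 0.352 by limma. Cardiac troponin T (A_05_P255254), the tropomyosin-binding subunit of troponin, had -0.09, -2.74, -2.94 and -1.27. Its mean of -1.76 ± 0.21 hides an array of pool pair 1 on which large and small fish were nearly equal. Slow skeletal muscle troponin (A_05_P277927) had -0.48, -2.47, -3.08 and -0.91, and tropomyosin 3 (A_05_P377692), the slow-fibre tropomyosin, had -0.12, -2.30, -3.04 and -1.02. These transcripts followed 1 pattern over the arrays, with the same 2 arrays lowest each time.

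Cardiac myosin binding protein (A_05_P277492), a thick filament protein, had -1.2, -1.54, -2.50 and -0.46 and a mean of -1.43 ± 0.09. Myoglobin (A_05_P252139), the oxygen store of red fibres, had -0.81, -1.37, -1.60 and 0.34 and a mean of -0.86 ± 0.15, and was thus above 0 on 1 array. Over the 8 slow muscle probes the median was -0.42 and -2.14 on the arrays of pool pair 1 and -2.72 and -0.95 on those of pool pair 2. The low arrays were therefore 1 of each dye orientation, and the part of dye effects in these values was not tested. The study's methods state that the plug was taken well above the lateral line. Slow muscle markers shared their array pattern with only some of the contractile genes described next, tropomyosin 2 and alpha actinin 2 among them. Both parvalbumins and a glyceraldehyde-3-phosphate dehydrogenase probe (A_05_P419277), described below, were also lowest on the same 2 arrays. The pattern was thus not particular to slow muscle genes. The part of slow muscle in any of these values was not tested.

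**Figure D3:**
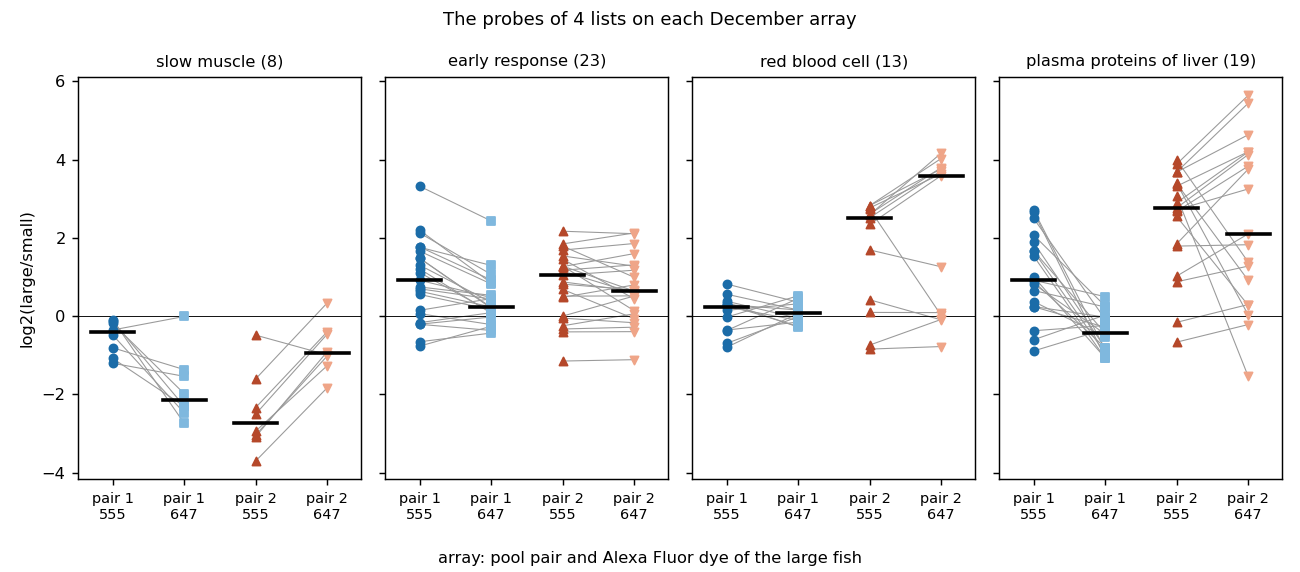
log2(large/small) of every probe of the slow muscle, early response, red blood cell and plasma protein lists on the 4 Dec. arrays, with the dye of the large fish under each array, grey lines joining a probe on the arrays of a swap, and black bars for the medians. Slow muscle medians run from -2.72 to -0.42, and red blood cell medians are at most 0.24 in pool pair 1 and at least 2.52 in pool pair 2.

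Transcripts of the fast myofibril, the contractile apparatus of white fibres, did not move as a block. Of 26 probes, 5 passed the threshold as higher in large fish and 11 as higher in small fish, with a median of -0.26. The 12 probes with names from elsewhere than the Dec. lists had a median of 0.25, and 3 of them passed as higher in large fish and 0 as higher in small fish. Different probes of 1 gene family therefore stood at opposite ends of the list.

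Myosin heavy chain (A_05_P277167), the motor of the thick filament, had -1.37, -0.64, -2.90 and -3.33 and a mean of -2.06 ± 0.60, among the lowest named means. A further probe of the same name (A_05_P393052) had 2.56, -0.06, 1.26 and 0.05 and a mean of 0.96 ± 0.19. Both arrays with large fish in Alexa Fluor 555 carried that positive mean, and the other dye orientation lay at 0. Tropomyosin 2 (A_05_P488277), which covers the myosin-binding sites of actin, had -0.28, -3.01, -3.32 and -0.55, the array pattern of the slow muscle genes. A further tropomyosin 2 probe (A_05_P261754) averaged -0.42 ± 0.09. Alpha actinin 2 (A_05_P352192), a Z-disc crosslinker, had -0.82, -1.47, -1.70 and -0.44 and a mean of -1.11 ± 0.09. Alpha actin (A_05_P423987), the thin filament itself, had 1.76, 1.5, 0.80 and 1.11 and was higher in large fish on every array, with a mean of 1.29 ± 0.21. Another alpha actin probe (A_05_P449267) averaged -0.20 ± 0.09 and did not pass.

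The parvalbumins, cytosolic calcium buffers that speed the relaxation of fast fibres, were among the lowest named transcripts in large fish. Parvalbumin 2 (A_05_P423182) had -0.43, -3.55, -2.26 and -0.16, and its mean of -1.60 ± 0.23 is a 3.03-fold lower level in large fish. Parvalbumin beta-2 (A_05_P429727) had -0.83, -3.32, -1.94 and -0.21, with a mean of -1.58 ± 0.29. Both were strongly negative on the same 2 arrays and close to 0 on the last. Sarcalumenin (A_05_P386127), a calcium-binding protein of the sarcoplasmic reticulum, averaged -0.41 ± 0.12. Over the 6 calcium-handling probes the median was -0.53, and 4 passed the threshold as higher in small fish and 0 as higher in large fish. Of these 6, 4 were on the Dec. lists, and the other 2, both calmodulin-dependent kinases, averaged 0.16 ± 0.10 (A_05_P304402, not past the threshold) and -0.28 ± 0.09 (A_05_P455732).

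Enzymes of energy metabolism split in both directions. Of 19 glycolysis probes, 4 passed as higher in large fish and 3 as higher in small fish, with a median of 0.06, and 8 of the 19 were on the Dec. lists. Glyceraldehyde-3-phosphate dehydrogenase (A_05_P419277) had -0.72, -2.21, -1.37 and -0.25 and a mean of -1.14 ± 0.20. A further probe of that name (A_05_P463477) averaged 0.31 ± 0.21 and did not pass. Phosphoglycerate mutase 2 (A_05_P431037), the muscle form of the mutase, had 0.97, 0.77, 0.81 and 0.66 and a mean of 0.80 ± 0.09. The mutase was thus higher in large fish on every array, and by similar amounts. Lactate dehydrogenase b (A_05_P444697), which favours the use of lactate, had 0.52, 0.64, 2.43 and 2.98, with a mean of 1.64 ± 0.60 that did not pass. It was high in pool pair 2, and a further probe of the name (A_05_P274809) averaged -0.08 ± 0.10. Transketolase (A_05_P414317), of the pentose phosphate pathway, was likewise high in pool pair 2, with 0.50, 0.91, 2.08 and 3.47.

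Of 28 probes for oxidative metabolism in mitochondria, 4 passed as higher in large fish and 8 as higher in small fish, around a median of -0.04, and 11 of the 28 were on the Dec. lists. ADP/ATP translocase 2, the carrier that exports ATP from mitochondria, had a probe (A_05_P276614) at 1.51, 0.66, 1.31 and 0.43 and another (A_05_P421709) at -1.25, -0.44, -0.80 and -0.05. Both kept 1 sign on all 4 arrays, in opposite directions, with means of 0.98 ± 0.10 and -0.64 ± 0.15. Cytochrome c oxidase subunit VIb (A_05_P406022), of the terminal respiratory complex, averaged -0.87 ± 0.25.

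Mitochondrial chaperones and enzymes of serine, glycine and folate metabolism were lower in large fish, with a median of -0.80 over 12 probes, of which 8 passed as higher in small fish and 0 as higher in large fish. Of these 12 probes, 11 were named from the Dec. lists, and the only other one averaged 0.19. Serine hydroxymethyltransferase 2 (A_05_P305947), which passes 1-carbon units from serine to folate, had -0.20, -0.83, -1.21 and -2.62, and its mean of -1.21 ± 0.40 did not pass. Lon protease (A_05_P294807), which clears damaged proteins from the matrix, had -0.04, -1.08, -1.22 and -1.27 and a mean of -0.90 ± 0.21. A 60 kDa heat shock protein probe (A_05_P257429), the folding chamber of the matrix, had -0.84, -0.19, -1.01 and -0.83. The difference was larger in pool pair 2, where the list median was -1.08, than in pool pair 1, where it was -0.48.

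Early response genes, which are switched on quickly by growth signals and by stress, were mostly higher in large fish. Of 23 probes measured, of 24 listed, 15 passed as higher in large fish and 2 as higher in small fish, with a median of 0.84. The median was 0.64 in pool pair 1 and 0.76 in pool pair 2. Of the 23 probes, 17 were on the Dec. lists and so were chosen on these arrays. The shared direction of the pool pairs is therefore no independent evidence. Among the 6 probes named from elsewhere, 5 had a positive mean, 2 passed as higher in large fish and 0 as higher in small fish. Their median was 0.34, and only 1 of the 6 kept 1 sign on all 4 arrays.

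Butyrate response factor 1 (A_05_P376337), which binds AU-rich messages and marks them for decay, had 2.20, 0.85, 2.17 and 2.11, a 3.56-fold higher level in large fish (mean 1.83 ± 0.19). It was similar on 3 arrays and lower on the other. Jun-b (A_05_P266894), a subunit of the AP-1 transcription factor, had 3.32, 2.43, 1.46 and 0.44 and a mean of 1.91 ± 0.55. Both arrays of pool pair 1 thus lay above both of pool pair 2. A further jun-b probe (A_05_P410847) followed the same order with 1.76, 1.30, 0.82 and 0.67. Jun-d (A_05_P473177), of the same family, averaged 0.85 ± 0.09. GADD45 beta (A_05_P409552, named growth arrest and DNA-damage beta), a stress sensor, had 1.66, 0.82, 1.69 and 1.86 and a mean of 1.51 ± 0.17. A further GADD45 beta probe (A_05_P443342), named from elsewhere, had 0.15, 0.45, -0.05 and -0.17. Its mean of 0.09 ± 0.14 did not pass.

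Metallothionein (A_05_P249474), which binds zinc and copper, had 1.48, 0.23, 1.85 and 2.13. The DDIT4-like probe (A_05_P249334, for DNA-damage-inducible transcript 4-like), an inhibitor of the mTOR growth pathway in mammals, had 2.13, 1.07, 1.28 and 0.14 and a mean of 1.15 ± 0.26. Among names from elsewhere, kruppel-like factor 2 (A_05_P409818), a zinc finger transcription factor, averaged 0.68 ± 0.10, and dual specificity phosphatase 1 (A_05_P383357), which switches off MAP kinases, averaged 0.58 ± 0.17. Of the 23 means, 4 were negative. Period homolog 1 (A_05_P462872), a clock gene, at -0.47 ± 0.09 and dual specificity phosphatase 6 (A_05_P303567) at -0.41 ± 0.10 were lower in large fish at the threshold. The lowest was a b-cell translocation gene probe (A_05_P278457), with -0.21, -0.37, -1.15 and -1.11. Its mean of -0.71 ± 0.25 did not pass, and a further probe of that name (A_05_P415552) passed as higher in large fish, at 0.61 ± 0.10.

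Transcripts of the ubiquitin-proteasome system, which tags and degrades proteins, were mostly higher in large fish. Of 35 probes measured, of 36 listed, 28 had a positive mean, 18 passed as higher in large fish and 3 as higher in small fish. The median was 0.43, with 0.34 in pool pair 1 and 0.53 in pool pair 2. For 21 probes the name came from elsewhere than the Dec. lists, with a median of 0.33. Of these, 8 passed as higher in large fish and 0 as higher in small fish. Over all names from elsewhere, 11.7% passed as higher in large fish. However, 0 of the 21 kept 1 sign on all 4 arrays. Of all names from elsewhere, 9.32% were positive on all 4 arrays and 3.46% were negative on all 4. Probes that the study listed on these arrays had been left out of the 21, which favours such a low count. Of those 21, 13 were named from the Sept. muscle lists, all 13 with a positive Dec. mean, and 8 from the liver lists or the platform annotation, 5 of them positive.

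Ubiquitin-conjugating enzyme E2 D2 had a probe (A_05_P273004) at 1.16, 0.76, 1.29 and 1.12, with a mean of 1.08 ± 0.11 and little spread over the arrays. Sequestosome 1 (A_05_P453857), which carries ubiquitinated proteins to autophagy, had 1.06, 0.10, 1.53 and 1.37. The subunits of the proteasome core were moderately higher. Proteasome subunit beta type-4 (A_05_P410972) had 1.10, -0.30, 0.48 and 0.84 and a mean of 0.53 ± 0.11, and proteasome subunit alpha type-6 (A_05_P436627) had 0.88, -0.17, 0.14 and 1.14 and a mean of 0.50 ± 0.12. The array of pool pair 1 with large fish in Alexa Fluor 647 was below 0 for both, and the list median on it was -0.17, against 0.75, 0.41 and 0.53 on the other arrays. Proteasome subunit beta type-9 (A_05_P459622), an immunoproteasome subunit, was above 0 on every array and averaged 0.90 ± 0.17, while 2 probes named psmb9b averaged -0.05 and 0.36. E3 ubiquitin ligase rnf14 (A_05_P424817) was among the 3 that passed in the other direction, at -0.54 ± 0.12.

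Lysosomal genes, the other route of protein breakdown, went both ways, with 10 of 23 probes past the threshold as higher in large fish and 9 as higher in small fish. Cathepsin D (A_05_P251434), an aspartic protease of lysosomes, had 1.28, 0.91, 1.70 and 1.41 and a mean of 1.32 ± 0.15. Lysosome membrane protein 2-like (A_05_P413782) averaged 1.70 ± 0.55, while legumain, an asparaginyl protease, had probes at -0.53 and -0.33. The list median was 0.10, and 17 of the 23 were on the Dec. lists.

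Genes for making proteins also split by probe. Of 18 ribosomal protein probes, 5 passed as higher in large fish and 8 as higher in small fish, with a median of -0.37, and 13 of the 18 were on the Dec. lists. 40S ribosomal protein S27 was at both ends, with 1.17, 0.43, 1.01 and 1.10 on a probe (A_05_P475507) and -1.73, -0.05, -0.59 and -1.41 on another (A_05_P390192). 40S ribosomal protein S2 (A_05_P366007) averaged 1.13 ± 0.09. Of 19 translation factor probes, 5 passed as higher in large fish and 8 as higher in small fish, with a median of -0.13, and 13 of the 19 were on the Dec. lists. Elongation factor 1 alpha 1, which delivers aminoacyl-tRNA to the ribosome, had a probe (A_05_P362822) at 1.42, 0.25, 1.99 and 2.63. Elongation factor 1 epsilon 1 (A_05_P468757), an auxiliary factor of tRNA synthetases, had -1.14, -0.35, -2.46 and -2.20. Of 17 chaperone probes, 4 passed as higher in large fish and 3 as higher in small fish, with a median of 0.02, and 9 of the 17 were on the Dec. lists. The 3 HSP90 probes, a folding factor of myosin and of many kinases, averaged 1.30 ± 0.31, 1.25 ± 0.35 and 1.01 ± 0.23, while probes named HSP90 alpha and hsp90b averaged 0.00 ± 0.23 and 0.22 ± 0.16. The platform's hsp70 (A_05_P252849) averaged 0.76 ± 0.18.

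Genes of fat storage and lipid metabolism were mostly higher in large fish. Of 29 probes, 23 had a positive mean, 12 passed as higher in large fish and 4 as higher in small fish, with a median of 0.49. The median was 0.38 in pool pair 1 and 0.60 in pool pair 2, and on each array it lay between 0.31 and 0.48. Among 13 probes named from elsewhere, 11 were positive but only 1 passed, as higher in large fish, with a median of 0.25. Over all names from elsewhere, 11.7% passed as higher in large fish. The other 16 lipid probes were on the Dec. lists and so were chosen on these arrays.

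Lipoprotein lipase (A_05_P429962), which releases fatty acids from circulating lipoproteins, had 2.40, 1.28, 1.14 and 1.09 and a mean of 1.47 ± 0.22, a 2.78-fold higher level in large fish. All 4 arrays were at least 2-fold. Delta-6 fatty acyl desaturase (A_05_P248839), which begins the synthesis of long unsaturated fatty acids, had 0.69, 0.38, 2.28 and 2.28, and its mean of 1.41 ± 0.50 did not pass. Adipose differentiation-related protein (A_05_P427297), a coat of lipid droplets, had 0.28, 1.07, 1.2 and 2.06. Adipocyte plasma membrane-associated protein (A_05_P431137) averaged 1.19 ± 0.14, NADP-dependent malic enzyme (A_05_P419472), a source of NADPH for fat synthesis, averaged 1.06 ± 0.09, and the 3 probes of the heart-type fatty acid-binding protein averaged between 0.88 and 1.08. The exceptions included hormone-sensitive lipase (A_05_P336397), which breaks down stored fat, at -0.39 ± 0.09. Lipoprotein lipase and the fatty acid-binding protein were listed here as fat cell markers, though they need not be specific to fat cells. The part of the number of fat cells in these values was not tested.

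Of 21 probes for enzymes of amino acid metabolism, 7 passed as higher in large fish and 6 as higher in small fish, with a median of 0.38, and 12 of the 21 were on the Dec. lists. Glutamate dehydrogenase, which links glutamate to the citric acid cycle, had probes at 1.2 ± 0.42, 1.03 ± 0.25 and -0.49 ± 0.10. Glutamate decarboxylase-like protein 1 (A_05_P409992) had 1.60, 0.83, 1.03 and 0.96, and 4-aminobutyrate aminotransferase (A_05_P372142) had -1.16, -0.22, -0.60 and -1.02. For these enzymes the direction depended on the gene and on the probe.

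The growth hormone and insulin-like growth factor axis, with its muscle targets, had a median of -0.01 over 10 probes, and 2 passed as higher in large fish and 3 as higher in small fish, and 5 of the 10 were on the Dec. lists. Growth factor receptor-bound protein 14 (A_05_P434562), an adaptor that binds the insulin receptor, had 1.49, 0.21, 1.88 and 1.22 and a mean of 1.2 ± 0.21. Type I iodothyronine deiodinase (A_05_P437087), which activates thyroid hormone, had 0.74, 0.28, 1.45 and 1.82. The insulin-like growth factor I receptor averaged -0.63, and FGF2 (A_05_P494417), a growth factor that keeps muscle precursors dividing, had -0.97, -0.15, -0.93 and -0.59. Myoblast determination protein 2 (A_05_P249699), a transcription factor of the muscle lineage, had -0.01, -0.61, -0.60 and -0.87 and averaged -0.52 ± 0.15, while the platform's myod1 and myod2 probes averaged 0.33 and 0.18 and did not pass. The growth hormone receptor probe ghr1 averaged 0.49 and did not pass.

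The actin cytoskeleton outside the myofibril was higher in large fish for most probes. Of 27 probes, 15 passed as higher in large fish and 6 as higher in small fish, with a median of 0.68, but 20 of the 27 were named from the Dec. lists and the other 7 had a median of 0.06. Annexin A1 (A_05_P287152), a membrane-binding protein of wound and immune responses, had 2.11, 0.69, 1.03 and 1.47, and formin homology region 1 (A_05_P272774), of the actin-assembling formins, had 1.35, 0.39, 1.97 and 1.12. Vimentin, an intermediate filament protein of connective tissue cells, averaged -0.41.

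Connective tissue genes had a median of 0.64 over 23 probes, with 10 past the threshold as higher in large fish and 5 as higher in small fish. Collagen type I alpha 1 and alpha 2, the main fibrous collagens, averaged 0.81 and 0.77, and matrix metalloproteinase 2 (A_05_P409312), which degrades collagen, had 1.60, 0.29, 0.93 and 0.95. Collagen type X alpha (A_05_P336802) averaged 1.15 ± 0.31. The 9 probes named from elsewhere had a median of -0.03, and lumican, a collagen-binding proteoglycan, averaged -0.34. Of 8 skin marker probes, 5 passed as higher in large fish and 2 as higher in small fish, with a median of 1.15. The medians on the arrays were 1.63, 0.24, 0.99 and -0.01. Both arrays with large fish in Alexa Fluor 555 thus lay above both with large fish in Alexa Fluor 647. Of the 8 probes, 6 were on the Dec. lists. Ictacalcin (A_05_P488907), a calcium-binding protein of fish epithelia, had 2.15, 0.86, 1.25 and 1.29 and a mean of 1.39 ± 0.11, and keratin 18 (A_05_P407317), of simple epithelia, had 1.52, 0.45, 1.88 and 0.88. E-cadherin and claudin 7, junction proteins of the same epithelia, averaged -0.64 and -0.52. The methods state that the skin was removed from the plug. The part of skin cells in the connective tissue values was not tested.

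Immune cell genes were higher in large fish for one set of markers and lower for another. Of 31 leukocyte probes measured, of 34 listed, 14 passed as higher in large fish and 8 as higher in small fish, with a median of 0.72. The 3 probes for the constant region of the Ig mu chain, which mark B cells, averaged between 0.72 and 1.07, and all 3 were on the Dec. lists. Other B cell probes, for an Ig kappa chain (A_05_P453132) and the receptor CD22 (A_05_P267034), averaged -0.02 ± 0.09 and 0.17 ± 0.09 and did not pass. CD53, a leukocyte surface antigen, averaged 0.93, c-type lysozyme averaged 1.04 and beta-2-microglobulin averaged 1.03. CD83, interleukin 17D and a CD209-like probe (A_05_P290987) were lower in large fish, at -0.38, -0.68 and -0.68. That CD209-like probe was above 0 on 1 array, at 0.17. Further CD209-like probes averaged -0.37 ± 0.09 (A_05_P395002) and 0.02 ± 0.10 (A_05_P418102), and the latter did not pass. C-C motif chemokine 13 (A_05_P476022), named from elsewhere, had 0.55, 0.56, 2.02 and 4.12, and its mean of 1.81 ± 0.71 came largely from pool pair 2. The 7 leukocyte probes with names from elsewhere had a median of 0.02, and 0 of them passed. Of 11 interferon-related probes, 3 passed as higher in large fish and 4 as higher in small fish, with a median of -0.05, and 5 of the 11 were on the Dec. lists. Interferon-induced transmembrane protein (A_05_P275264) had 1.15, 0.64, 1.17 and 1.47, and 2 guanylate-binding protein probes averaged -0.59 and -0.53.

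Blood transcripts separated the pool pairs. The 13 red blood cell probes had a median of 0.06 in pool pair 1 and of 2.97 in pool pair 2, and 7 of them were at least 4-fold higher in large fish in pool pair 2, against 0 in pool pair 1. Hemoglobin subunit alpha (A_05_P480657), a chain of the oxygen carrier, had 0.82, 0.36, 2.83 and 4.03, the highest mean of the named genes with 1 sign on all arrays at 2.01 ± 0.80, yet it did not pass. Hemoglobin subunit beta-1 (A_05_P453042) had 0.15, 0.31, 2.61 and 3.80, and a platform probe named hba (A_05_P249379), outside the list, had 0.53, 0.41, 2.86 and 3.95. In each case both arrays of pool pair 2 lay above both of pool pair 1, and both dye orientations had the same sign. Of the 13 probes, 0 passed as higher in large fish and 1 as higher in small fish, a hemoglobin beta probe (A_05_P395622) at -0.58 ± 0.15. A further hba probe (A_05_P332705), also outside the list, had -1.15, 0.29, -0.81 and -0.55. Its mean of -0.55 ± 0.11 passed as higher in small fish. The list leaves 12 probes when names from the Dec. lists are dropped, with a median of 1.44.

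Plasma proteins, made mainly by the liver, followed the same split. Of 39 probes listed, 19 had all 4 Dec. values, with a median of 0.23 in pool pair 1 and 2.69 in pool pair 2. The others lacked a Dec. value, a far larger share than the 3833 of 43603 over the whole array. These values therefore describe only the part of the list that was left. In pool pair 2, 11 of the 19 were at least 4-fold higher in large fish, and in pool pair 1, 0 were. Over both pool pairs 5 passed as higher in large fish and 1 as higher in small fish. The names of 15 of the 19 came from the Sept. muscle lists. Liver-type fatty acid-binding protein (A_05_P263874), a lipid carrier of liver cells, had 0.82, -0.46, 3.89 and 5.64, and beta-2-glycoprotein 1-like (A_05_P275734), a plasma protein that binds phospholipids, had 0.89, -0.81, 3.68 and 5.44. The 2 arrays of pool pair 1 had opposite signs for both of them. Alpha-2-HS-glycoprotein (A_05_P364887), which carries calcium phosphate in serum, had 0.66, 0.23, 4.00 and 1.38. Fibrinogen gamma chain, the clotting protein, had a probe (A_05_P480537) at 2.66, -1.06, 2.90 and 4.2 and another (A_05_P364872) at 2.71, -0.86, 3.07 and -1.54. The other plasma protein probes with 1 sign on all arrays were liver-expressed antimicrobial peptide 2 (A_05_P475047), at 2.07, 0.26, 1.02 and 2.10, coagulation factor VII (A_05_P333597), at 0.92, 0.50, 0.88 and 1.28, and coagulation factor X (A_05_P425897), at -0.37, -0.24, -0.66 and -0.22. Blood and liver markers moved with the other genes that were high in pool pair 2, and their part in those values was not tested.

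Further genes were also far apart between the pool pairs. Zona pellucida sperm-binding protein 3 (A_05_P377297), an egg coat protein made in the liver of some fish, had -1.54, -0.68, 4.82 and 4.19, with opposite signs in the pool pairs. Cytochrome b (A_05_P486612), which mitochondrial DNA encodes, had 0.58, -0.78, 2.63 and 5.24. Fucolectin-4 (A_05_P463327), a fucose-binding lectin of fish serum, had 1.2, 0.12, 3.05 and 2.75. Cathepsin M, extracellular matrix protein 1 and fibronectin averaged 2.59, 2.42 and 1.59 and did not pass either.

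Several transcripts with no clear link to muscle were lower in large fish. All 4 probes named for an rRNA promoter binding protein or a senescence-associated protein, names that in many databases belong to sequences overlapping ribosomal RNA, had negative means, with a median of -1.67. Of these, 3 were on the Dec. lists and so were chosen on these arrays, and the other (A_05_P476718) averaged -0.27 ± 0.15 and did not pass. The rRNA promoter binding protein probe (A_05_P425972) had -3.15, -0.15, -4.21 and -2.30 and the lowest mean of all named genes, -2.45 ± 0.46. A further probe (A_05_P393707), which the study named rRNA promoter binding protein in its muscle list and senescence-associated protein in its liver list, had -1.35, -0.91, -2.31 and -2.78. The RNA used was purified for poly(A), and the methods state that both oligo(dT) and random hexamers primed the cDNA. The part of residual ribosomal RNA in these values was not tested.

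Transposable element probes were lower in large fish for 24 of the 26 measured, of 29 listed, with 20 past the threshold as higher in small fish and 1 as higher in large fish, and a median of -0.54. The medians on the arrays were -0.75, 0.10, -0.65 and -0.71, so the array of pool pair 1 with large fish in Alexa Fluor 647 stood apart. The Tcb1 transposase probes, for a Tc1-like DNA transposon, may share sequence and cannot be counted as separate genes. Among them, A_05_P469462 had -0.90, -0.14, -0.60 and -0.49. Most of the 26 were chosen on these arrays, and the 5 named from elsewhere had a median of -0.28.

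Developmental regulators, among them homeobox, Sox and Pax transcription factors, had a median of -0.46 over 24 probes, with 1 past the threshold as higher in large fish and 15 as higher in small fish. Sox-17 (A_05_P341482), a regulator of endoderm and vessels, had -1.02, -0.28, -0.71 and -0.49, and Pax-1 (A_05_P353807), a regulator of the axial skeleton, had -0.61, -0.22, -0.25 and -1.18. The 8 regulators named from elsewhere, among them the satellite cell gene pax7 at -0.03 and the myogenic factor myf5 at -0.09, had a median of 0.01, and 1 of them passed. The 8 myelin and nerve probes all had negative means, with a median of -0.33, and 2 passed as higher in small fish and 0 as higher in large fish. Of these 8, 3 were on the Dec. lists. Myelin basic protein (A_05_P375352), the inner coat of myelin, had -0.65, -0.10, -0.64 and -0.47.

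**Figure D4:**
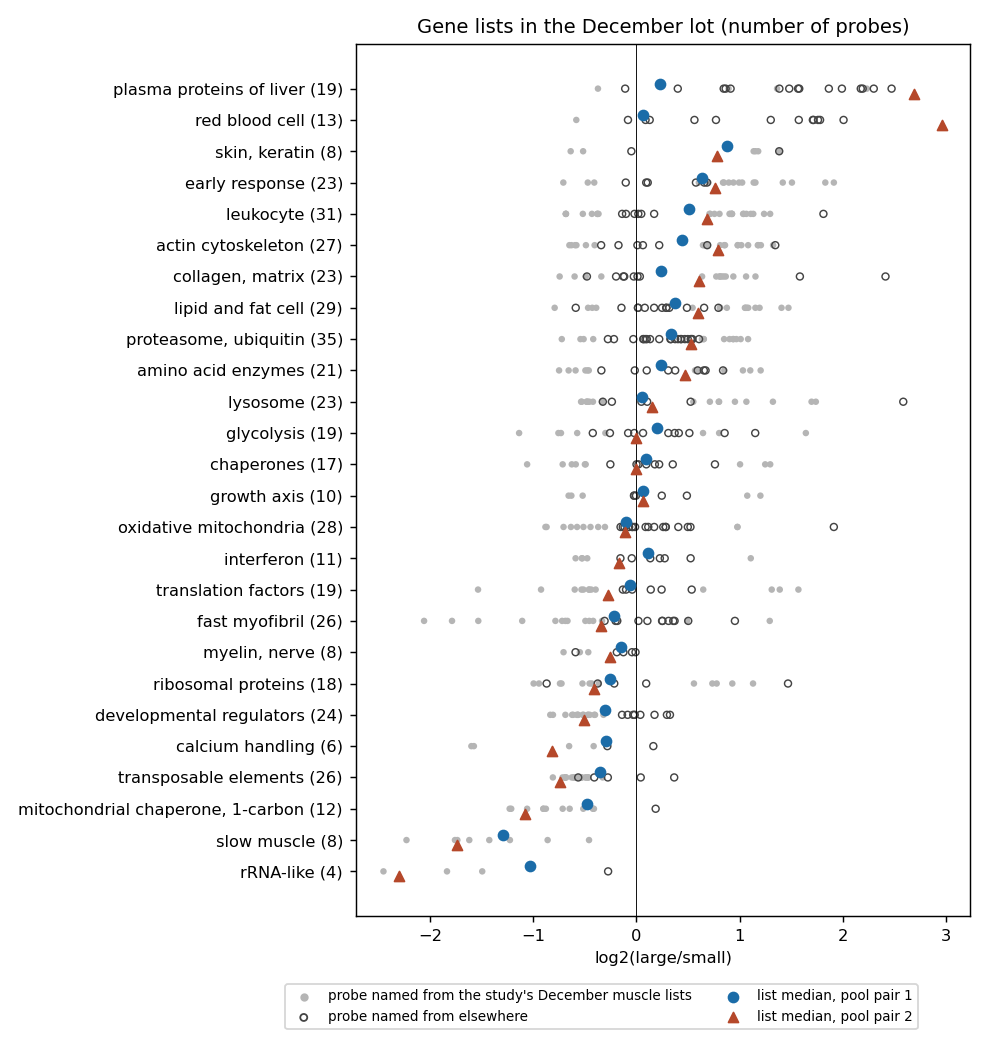
Mean log2(large/small) of each probe in the 26 gene lists, as filled grey points where the study's Dec. muscle lists gave the name and open circles where it came from elsewhere, with the list medians of pool pair 1 (blue circles) and pool pair 2 (red triangles). The pool pair medians lie farthest apart for red blood cell genes (0.06 and 2.97), plasma proteins (0.23 and 2.69) and the rRNA-like probes (-1.03 and -2.30).

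Among all 39770 probes the median was -0.01 and 46.6% of means were above 0. Of the 1416 named probes with Dec. values, 751 were on none of the study's Dec. muscle lists. Among these 751, 88 passed as higher in large fish (11.7%) and 31 as higher in small fish (4.13%), against 5.54% and 6.51% of all probes, and their median was 0.06. Several probes carried 118 of the names, and for 62 of these names the probes lay on both sides of 0. Among names from elsewhere, the lowest with 1 sign on all arrays were fshr (A_05_P249804), a receptor of follicle-stimulating hormone, with -0.25, -0.85, -0.69 and -0.23, and esr1 (A_05_P406492), an oestrogen receptor, with -0.19, -0.31, -0.01 and -1.35. Death-associated protein kinase 2 averaged -0.43, snurportin 1 averaged -0.33 and ahr1, the dioxin receptor, averaged -0.30. These were small next to the highest names from elsewhere, the hemoglobins, chemokine 13 and alpha-2-HS-glycoprotein.

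Probes with no name reached as far as the named ones. The highest with 1 sign on all arrays, A_05_P481682, had 0.52, 0.08, 4.23 and 5.53, and A_05_P366057 had 0.20, 0.14, 5.62 and 3.82. Both repeat the pool pair 2 pattern of the blood and liver genes. The lowest were A_05_P288607, with -1.28, -7.18, -0.65 and -0.42, and A_05_P258599, with -7.08, -0.17, -0.43 and -0.15. A single array of pool pair 1 carries the mean of each.

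The size difference of the Dec. lot was set against that of the Sept. lot over the 38488 probes with values on all 8 arrays. The lots are named by the month of crossing. By the methods, the Dec. fish were sampled in February and the Sept. fish in December, and the lots had different parents. Season and parents therefore cannot be told apart in a difference between lots. The difference between lots had an adjusted p under 0.05 by limma for 0 probes (0%), with a lowest adjusted p of 0.483, and 3483 probes (9.05%) had an unadjusted p of at most 0.05 and a difference of at least 1.2-fold. Of these, 1877 were higher in the Dec. lot and 1606 were lower. Slow muscle genes had a median of -1.52 in the Dec. lot and 0.30 in the Sept. lot. All 8 had an unadjusted p of at most 0.05 for the difference by limma, with adjusted p between 0.483 and 0.531. In every pool pair, 5 of them had opposite signs in the lots. All 8 were named from the Dec. muscle lists and so were chosen on the Dec. arrays, which favours such a difference. The difference is therefore no independent evidence of a contrast between the lots.

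Proteasome and ubiquitin genes had a median of 0.43 in the Dec. lot and -0.18 in the Sept. lot, and for 16 of 35 probes all pool pairs of the Dec. lot were higher in large fish and all of the Sept. lot higher in small fish, or the reverse. Many of these names came from the Sept. muscle lists, which were chosen on the Sept. arrays. For 21 of the 35 the unadjusted p of the difference was at most 0.05. Over the 22 early response probes with values in both lots, the median was 0.77 in the Dec. lot, and in the Sept. lot 11 means were above 0 and 11 below. Most early response names came from the Dec. muscle lists, which were chosen on the Dec. arrays. Parvalbumin 2 was lower in large fish in both lots, at -1.60 in the Dec. lot and -2.75 in the Sept. lot. Plasma proteins had medians of 1.48 in the Dec. lot and 0.81 in the Sept. lot. The Dec. median was 0.23 in pool pair 1 and 2.69 in pool pair 2. Of the 19 plasma protein probes, 15 were named from the Sept. muscle lists, which were chosen on the Sept. arrays. The DDIT4-like transcript averaged 1.15 in the Dec. lot and 2.36 in the Sept. lot. Parvalbumin 2 and the DDIT4-like transcript were on the study's muscle lists of both lots, which favours a shared direction. None of these differences between lots passed after adjustment.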

How the data were processed

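Each deposited column holds the log2 ratio between the channels of 1 array. According to the methods, the authors reviewed the scanned spots manually, dropped points with a ratio of channel intensities under a baseline, and applied lowess normalisation in GeneSpring to single arrays and then between arrays. Scanner intensities were not analysed here, so precision rests on how many arrays there were. The table held 43663 rows, 60 of them control features. All columns were negated to log2(large/small), and the arrays of a dye swap were averaged. Probes with all 4 Dec. values were fitted in limma 3.58.1 (R 4.3.3, lmFit and eBayes, intercept only, two-sided), with Benjamini-Hochberg adjustment over all probes and a threshold of 0.05. The difference between lots was fitted over 4 pool pairs with a mean per lot. The study's threshold was counted on limma's unadjusted p, since the methods name no adjustment. p-values reflect how far the pool pairs lay apart, not the variation among single fish, and SEs of many probes are close to the prior spread that limma adds. The script was tested on simulated data.

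The gene lists in the study's supplement named 1308 probes, and 221 probes carried 1 symbol in the platform table. Where the study's lists gave 1 probe different names, which happened for A_05_P393707, figures carry the liver list's name. The platform gives several symbols for 0 probes, and 0 of its accessions matched the trout RefSeq table. Of 1494 named probes, 1416 had all 4 Dec. values. The 26 gene lists, described without a test, and the rules were chosen with earlier results of these data known. Of named probes with 1 sign on all arrays, the rule took the 12 highest and 12 lowest means, the 5 highest and 5 lowest with names from elsewhere than the Dec. muscle lists, up to 4 per list (up to 2 where no probe had 1 sign), the 4 with the largest difference between pool pairs, 2 unnamed probes at each end, and other probes of these genes, 145 in all. Other list members named in the text were picked as examples after their values were seen. Columns of no sample numbered 0. Alternatives covered the spread, the replicate unit, the methods' t-test, centring, scaling, the filter, dye orientation and each array or pool pair left out.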

Additional observations from a re-analysis of the deposited data

Results flagged for a closer look

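In 14 of the 145 named probes, 1 of the 4 arrays lay apart from the other 3 by a larger share of the whole range than Dixon's critical value for 4 samples, which chance does in about 1 of 20 groups. The arrays of a group here are 2 dye swaps and not 4 replicates. On pool pair 1 with large fish in Alexa Fluor 555, the outlying value was -7.08 for A_05_P258599, 1.89 for adipocyte plasma membrane-associated protein, 1.56 for a glyceraldehyde-3-phosphate dehydrogenase probe (A_05_P463477), 1.94 for keratin 19, 2.40 for lipoprotein lipase, -0.0398 for lon protease and -1.0 for snurportin 1. On pool pair 1 with large fish in Alexa Fluor 647, it was -7.18 for A_05_P288607, 0.85 for butyrate response factor 1, 0.12 for epididymal secretory protein e1, -0.0043 for an elongation factor 1 alpha 1 probe (A_05_P454907), 0.17 for a Tcb1 transposase probe (A_05_P483047) and 0.0544 for a transposase homolog (A_05_P388127). On pool pair 2 with large fish in Alexa Fluor 647, it was 4.14 for 6-phosphofructo-2-kinase. No difference between the lots passed after adjustment, so none is listed here.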

How the results depend on the processing

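The count of 0 probes with an adjusted p under 0.05 held in all alternatives but 2, which gave 3 probes (the methods' t-test on the 2 pool pairs, where the pool pairs had identical means) and 394 (pool pair 1 left out). Leaving out a pool pair or an array gave between 0 and 394. Higher in large fish and in small fish, the probes at the study's threshold numbered 514 and 378 with the methods' t-test on the 4 arrays, 468 and 517 with it on the 2 pool pairs, 1440 and 1487 with arrays scaled to equal spread, and 537 and 1061 on the arrays with large fish in Alexa Fluor 647 alone, and the cause was not tested. Leaving out a pool pair or an array gave 473 to 3156 in large fish and 839 to 3673 in small fish. With the pool pair as a replicate block over 4 arrays, 0 probes passed after adjustment, and 2064 and 2493 passed the threshold. For the difference between lots, a replicate block on the pool pair number, which only names the pools, also gave 0, as did every other alternative run.

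Over 145 named probes and 1740 alternative values, 1402 kept direction and side of the threshold, 250 lost it, 72 gained it and 16 changed sign. Without pool pair 1, the value was 0.15 for NADH dehydrogenase (A_05_P397872) and -0.0321 for glyceraldehyde-3-phosphate dehydrogenase (A_05_P463477). Without pool pair 2, it was -0.10 for cytochrome b (A_05_P486612) and -1.11 for zona pellucida sperm-binding protein 3 precursor (A_05_P377297). With only the arrays with large fish in Alexa Fluor 647, it was 0.059 for NADH dehydrogenase (A_05_P397872), -0.14 for glyceraldehyde-3-phosphate dehydrogenase (A_05_P463477), -0.18 for hemoglobin subunit alpha (A_05_P441202), 0.089 for lactate dehydrogenase b (A_05_P274809) and -0.0033 for myosin heavy chain (A_05_P393052). With only those in Alexa Fluor 555, it was 0.13 for myelin basic protein (A_05_P472647). When 1 array or pool pair was left out, these ran from -0.18 to 0.15 for the NADH dehydrogenase probe, -0.14 to 0.76 for the glyceraldehyde-3-phosphate dehydrogenase probe, -0.0505 to 0.23 for the hemoglobin probe, -0.28 to 0.12 for the lactate dehydrogenase probe, -0.40 to 0.15 for the myelin probe, -0.10 to 3.93 for cytochrome b and -1.11 to 4.51 for zona pellucida sperm-binding protein 3. Of 363 list medians, 263 moved little, 97 moved and 3 changed sign from a main value of at least 1.2-fold. Those 3 went to -0.0257 for connective tissue, 0.0109 for developmental regulators and 0.19 for mitochondrial chaperones, without members named from the Dec. lists. Sign changes of smaller medians were not counted as such. In that setting fast myofibril went from -0.26 to 0.25 and translation factors from -0.13 to 0.05. Oxidative metabolism went from -0.04 to 0.11 and interferon from -0.05 to 0.18. With 2 pool pairs, the number of arrays limits the precision of every value.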
